A study of Mus musculus with 3 samples.

Results

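The 9 genes described here encode receptor tyrosine kinases that sense growth factors: Egfr, Erbb2, Erbb3 and Erbb4 of the EGF receptor family, Fgfr1, Fgfr2 and Fgfr3 of the FGF receptor family, and Pdgfra and Pdgfrb, the 2 PDGF receptors. Peaks were taken when they named 1 of these genes as the closest, or when their midpoint lay within 50 kb of 1 of its transcription start sites (TSS). This gave 150 of 98086 Smad3 peaks and 102 of 63154 JMJD3 peaks. All 9 genes were among the 16428 that the 2 lists named as closest to a peak. The rule used gene names and the positions of the listed peaks, and no measure of peak width or strength. The genes were chosen with earlier results of these data known.

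The data were peak lists from chromatin immunoprecipitation and sequencing (ChIP-seq) in wild-type mouse neural stem cells, grown in culture from the cerebral cortex of E12.5 embryos; the strain is not given in the labels. The medium held EGF at 20 ng/ml and FGF at 10 ng/ml, the ligands of 2 of the receptor families described here. All cells had received TGFb at 5 ng/ml, and the series text gives 30 minutes for both immunoprecipitations. There was 1 library of Smad3, which carries TGF-beta receptor signals into the nucleus, and 1 of JMJD3, a demethylase of histone H3 lysine 27. A library of input DNA was not analysed here. Each antibody had 1 library, so replicate error is unknown and no difference was tested. In a bulk library, binding in fewer cells and weaker binding per cell cannot be told apart. With no untreated library, no value shows an effect of TGFb.

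Receptors of these families span the cell membrane and are brought together in pairs when a ligand binds outside, after which their kinase domains phosphorylate each other and recruit adaptors that start the Ras-ERK and PI3K-Akt cascades. ErbB2 has no known ligand of its own and works as a partner, and ErbB3 has a weak kinase and signals mainly through its partners. In the developing cortex, FGF receptors act in progenitor growth and patterning, EGFR rises as progenitors move toward gliogenesis, and PDGFRA marks oligodendrocyte precursors. PDGFRB is best known in pericytes and other mesenchymal cells.

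Promoter sequences are given where a peak list and a start site could be set side by side, since the capitals show the short element that Smad proteins recognise. The sequences are RefSeq windows on GRCm38.p6, from 250 bases before to 50 bases after the start, and 6 of the 9 genes had one. For 5 windows of 4 genes, the start lay at the same distance from the far end of the gene as a start in the files, within 10 bp. One per gene is printed; Fgfr3 had another, for its innermost start, at chr5:33722056-33722355 on the plus strand. The printed windows lie at chr11:16751953-16752252 on the plus strand (Egfr), chr11:98412234-98412533 on the plus strand (Erbb2), chr7:130266759-130267058 on the minus strand (Fgfr2) and chr5:33721474-33721773 on the plus strand (Fgfr3). Capitals mark AGAC or its reverse complement GTCT, read 5′ to 3′ on the strand of the gene.
Egfr: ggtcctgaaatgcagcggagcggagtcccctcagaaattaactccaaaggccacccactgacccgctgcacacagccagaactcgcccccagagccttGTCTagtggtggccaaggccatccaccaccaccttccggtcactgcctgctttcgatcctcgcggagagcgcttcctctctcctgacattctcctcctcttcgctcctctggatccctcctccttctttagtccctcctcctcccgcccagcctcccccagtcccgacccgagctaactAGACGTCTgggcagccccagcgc
Erbb2: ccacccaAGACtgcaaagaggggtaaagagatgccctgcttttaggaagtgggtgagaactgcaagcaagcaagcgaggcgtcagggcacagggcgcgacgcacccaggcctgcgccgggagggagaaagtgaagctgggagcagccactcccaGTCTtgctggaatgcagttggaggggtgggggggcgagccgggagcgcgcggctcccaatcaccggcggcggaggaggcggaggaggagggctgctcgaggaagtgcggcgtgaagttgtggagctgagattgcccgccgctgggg
Fgfr2: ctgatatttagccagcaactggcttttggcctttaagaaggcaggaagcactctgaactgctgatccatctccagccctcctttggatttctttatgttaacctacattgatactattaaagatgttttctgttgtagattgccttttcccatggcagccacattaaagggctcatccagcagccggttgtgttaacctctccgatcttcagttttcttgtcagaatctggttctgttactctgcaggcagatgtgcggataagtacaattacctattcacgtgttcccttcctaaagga
Fgfr3: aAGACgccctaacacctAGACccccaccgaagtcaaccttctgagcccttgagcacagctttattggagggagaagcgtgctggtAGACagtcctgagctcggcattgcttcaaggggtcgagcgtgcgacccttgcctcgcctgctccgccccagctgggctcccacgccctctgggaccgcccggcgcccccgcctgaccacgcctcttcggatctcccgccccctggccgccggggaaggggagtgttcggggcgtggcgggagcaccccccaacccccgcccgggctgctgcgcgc

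The Egfr window held 3 matches, of which 2 stood side by side just after the start, with first bases at 28 and 32. Erbb2 had 2 matches and the printed Fgfr3 window had 3, all upstream of the start, while the other Fgfr3 window had 1. Fgfr2 had 0. At least 1 match was present in 88.0% of 32851 promoter windows of this length, with a median of 2, so its presence does not set these promoters apart. The GC-rich element GGCGC (reverse complement GCGCC), another sequence that Smad proteins can bind, had 2 matches each at Erbb2 and in the printed Fgfr3 window, 5 in the other Fgfr3 window, and 0 at Egfr and Fgfr2, and 36.9% of all windows had at least 1. The 2 matches in the printed Fgfr3 window were the 2 strands of 1 stretch. In the other Fgfr3 window this also held for matches with first bases at -123 and -122, and for those at 25 and 26. The AP-1 element TGANTCA was in 0 of these 5 windows and in 7.81% of all, both strands searched. Matches of different elements may overlap in part of their letters. GC content was 62.3% at Egfr, 66.0% at Erbb2, 69.7% and 73.0% in the 2 Fgfr3 windows and 43.7% at Fgfr2, against a median of 52.7%. The Fgfr2 window held 4 CpG dinucleotides and the other printed windows held 15, 21 and 26, against a median of 7 over all windows.

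Smad3 was listed at the promoters of 8 of the 9 receptor genes and JMJD3 at 6, with both at the same 6: Egfr, Erbb2, Erbb4, Fgfr1, Fgfr2 and Fgfr3. The rule for a promoter was a peak midpoint within 1 kb of the TSS, in a peak that named the gene. By this measure 73.1% of all genes named in the lists had Smad3, 57.1% had JMJD3 and 55.1% had both. Of all 20953 coding genes the shares were 55.0%, 43.3% and 41.9%. Erbb3 and Pdgfra had Smad3 without JMJD3, and Pdgfrb had neither. Among all genes with a Smad3 promoter peak, 75.4% had a JMJD3 promoter peak too, so 6 of 8 is close to the background. The number of genes is small, and the shares are descriptions with no test.

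In the EGF receptor family, Egfr had the broadest coverage at its promoter. The gene (Entrez 13649) lies on chromosome 11 from 16652205 to 16813910 on the plus strand of mm9. Its Smad3 peaks ran from 16651671 to 16653101, in 3 peaks that form a region of 1020 bp and, 11 bp further, another of 401 bp. JMJD3 covered 16651771 to 16653280, a region of 1510 bp in 4 peaks that reached from 434 bp before the TSS to 1075 bp after it. A region here is a run of peaks of the same list in which each starts at most 10 bp past the end of the one before. The JMJD3 region was wider than those of 91.8% of genes with a JMJD3 promoter peak, and the Smad3 region wider than those of 74.4%. These widths depend on the joining, since with touching peaks alone joined they were 541 bp for JMJD3 and 671 bp for Smad3.

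Erbb2 (Entrez 13866, chromosome 11, 98273797 to 98299030, plus strand), the co-receptor of the family, had compact regions over its start. Smad3 covered 730 bp from 326 bp before to 403 bp after the TSS, and JMJD3 covered 460 bp within it, from 266 bp before to 193 bp after. Of genes with a JMJD3 promoter peak, only 5.17% had a narrower widest region.

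Erbb3 (Entrez 13867, chromosome 10, 128006423 to 128026557, minus strand) had no peak on its start. The Smad3 region of 601 bp lay from 1284 bp to 684 bp before the TSS, with a peak midpoint inside the 1 kb limit at 849 bp and another outside it at 1154 bp. No JMJD3 peak overlapped it. JMJD3 was listed further upstream, in a region of 611 bp centred 3619 bp before the TSS, where Smad3 had a region of 500 bp. Both factors were thus listed near Erbb3, but at its promoter Smad3 alone.

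Erbb4 (Entrez 13869, chromosome 1, 68086539 to 69154633, minus strand), a neuregulin receptor, had 2 separate regions for each factor at its start. The Smad3 regions were 671 bp, across the TSS, and 540 bp, from 867 bp to 328 bp before it. The JMJD3 regions were 430 bp, from 63 bp to 492 bp after the TSS, and 470 bp, from 727 bp to 258 bp before it. The TSS itself lay in the gap between the 2 JMJD3 regions. Another shared site followed inside the gene, with a Smad3 region of 1461 bp centred 2092 bp after the TSS, wider than 98.6% of Smad3 regions away from promoters.

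**Figure D1:**
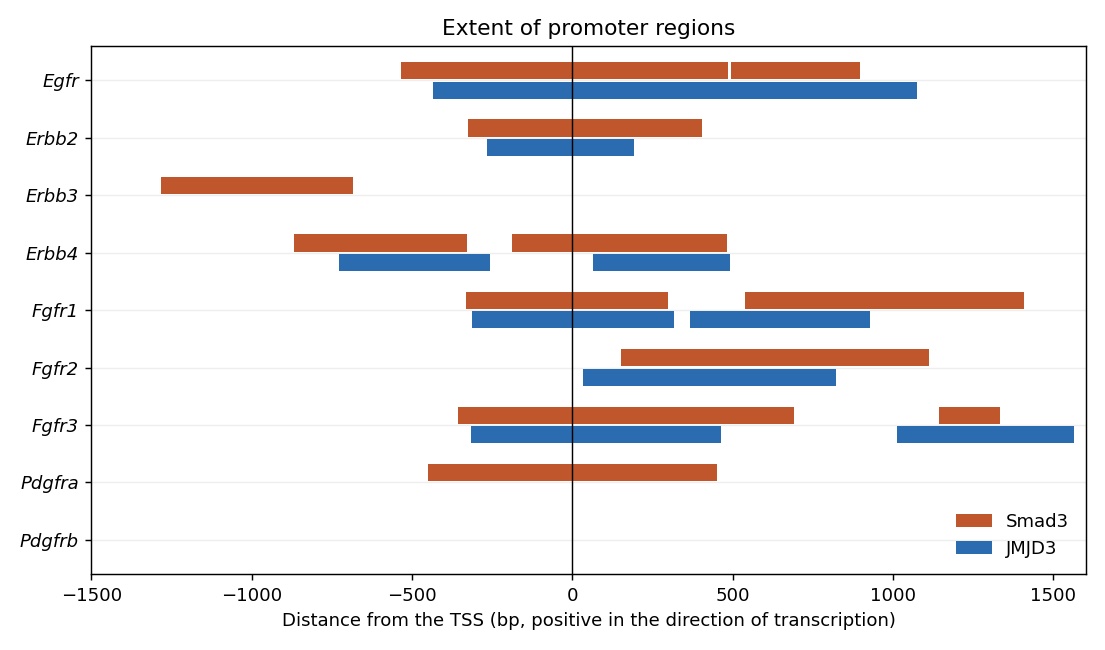
Bars show the extent of each region with a promoter peak, in bp from the transcription start site (positive in the direction of transcription), for Smad3 (orange) and JMJD3 (blue) in 1 library each. For genes with several starts, distances are from the start closest to the gene's first Smad3 region. Egfr has the longest JMJD3 bar (1510 bp), the bars of Fgfr2 begin after it, Erbb3 and Pdgfra have Smad3 alone and Pdgfrb has none.

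Among the FGF receptors, Fgfr1 and Fgfr3 were covered at their starts and Fgfr2 just past it. Fgfr1 (Entrez 14182, chromosome 8, 26629243 to 26686186, plus strand) had nearly the same region for both factors across the TSS, 631 bp for Smad3 (26628911 to 26629541) and 630 bp for JMJD3 (26628931 to 26629560). Behind it lay a second Smad3 region of 871 bp and a second JMJD3 region of 560 bp.

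Fgfr2 (Entrez 14183, chromosome 7, 137305964 to 137410322, minus strand) had a Smad3 region of 961 bp that began 151 bp after the TSS and a JMJD3 region of 790 bp that began 32 bp after it. The window of Fgfr2 printed above ends 50 bases after the start, so the Smad3 region lies wholly outside it. Further Smad3 and JMJD3 peaks continued into the gene with gaps of at most 10 bp, and together they formed a stretch of 2270 bp, from 137408021 to 137410290.

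Fgfr3 (Entrez 14184, chromosome 5, 34064372 to 34079713, plus strand) is listed with 3 starts. Smad3 covered all 3 in a region of 1050 bp, from 34064051 to 34065100. The JMJD3 region there was 780 bp wide and ended before the innermost start, at 34064954. A smaller stretch of Smad3, 191 bp, lay after that start within 551 bp of JMJD3.

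Neither PDGF receptor had JMJD3 at the promoter, as was the case for Erbb3. Pdgfra (Entrez 18595, chromosome 5, 75548315 to 75594229, plus strand) is listed with 2 starts. Its Smad3 region of 900 bp was centred on the inner one, at 75552190, and reached from 449 bp before to 450 bp after it. No peak of either list lay within 1 kb of the outer start. Pdgfrb (Entrez 18596, chromosome 18, 61204803 to 61244721, plus strand) had no promoter peak, and was named by 1 Smad3 peak of 370 bp and 1 JMJD3 peak of 510 bp, which overlapped at about 11.5 kb inside the gene.

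Widths at these promoters ranged from 601 to 1050 bp for Smad3 over 8 genes and from 460 to 1510 bp for JMJD3 over 6. The Smad3 median was 885.5 bp, against 760 bp over 12007 genes with a Smad3 promoter peak, and 3 of the 8 were below the latter. For JMJD3 the median was 705 bp, against 860 bp over 9380 genes, and 5 of the 6 were below it. Egfr was the exception, while Erbb2, Erbb4 and Fgfr1 were wider than 5.17%, 5.86% and 20.1% of these genes, by the widest region of each. This order depends on the joining: with touching peaks alone joined, Egfr (541 bp) was below Fgfr2 (790 bp) and Fgfr3 (780 bp), and with gaps of up to 100 bp joined, Fgfr1 was at 1240 bp. The files give no height, enrichment or read number per peak. Width stands in for strength here, and the depth behind it is unknown. When only peaks in regions at or above the median width were kept (561 bp for Smad3, 740 bp for JMJD3), JMJD3 remained at the promoters of 3 receptor genes, Egfr, Fgfr2 and Fgfr3, and of 37.6% of all genes named. Smad3 remained at all 8, and at 53.4% of genes.

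**Figure D2:**
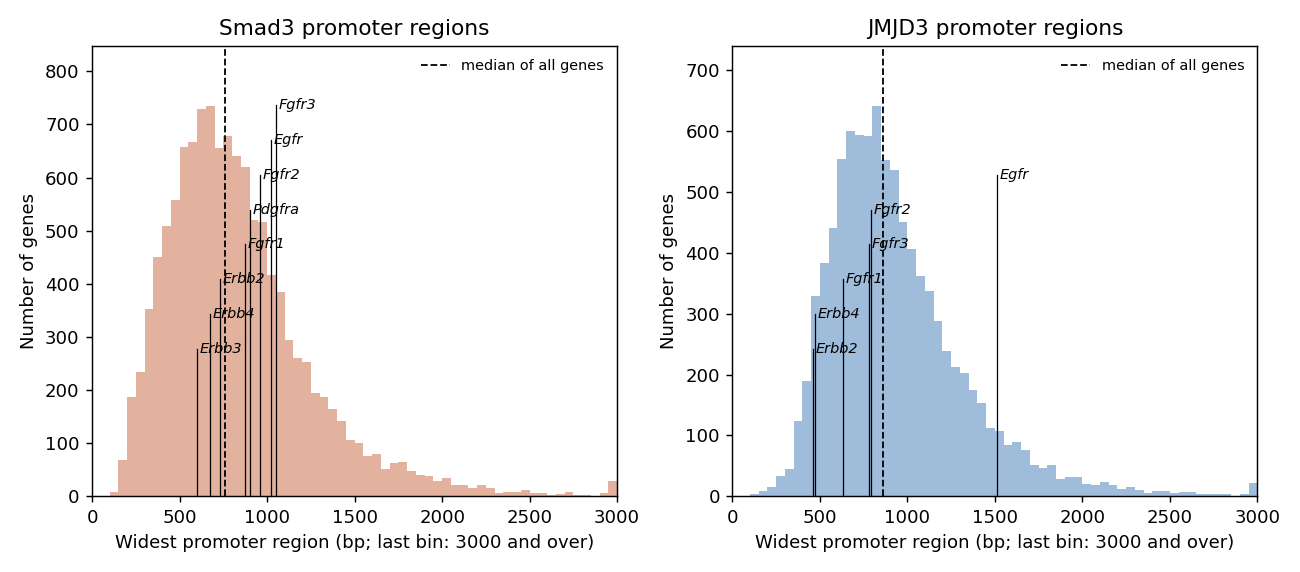
Histograms give the number of genes by the width in bp of their widest promoter region, for Smad3 (left, 12007 genes) and JMJD3 (right, 9380 genes), with the receptor genes marked and the median of all genes dashed (760 and 860 bp). The receptor genes sit around the median for Smad3, and all but Egfr sit below it for JMJD3.

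Most of the peaks at these genes lay away from the promoter. Of the 123 Smad3 peaks that named a receptor gene, 17 (13.8%) were at a promoter, 46 (37.4%) upstream of it, 49 (39.8%) inside the gene and 11 (8.94%) past its end. For the 89 JMJD3 peaks the numbers were 12 (13.5%), 35 (39.3%), 31 (34.8%) and 11 (12.4%). By class, JMJD3 overlapped 14 of the 17 Smad3 peaks at promoters (70.9% over all genes), 31 of the 46 upstream (57.3%), 29 of the 49 inside genes (55.6%) and 9 of the 11 past gene ends (56.7%). Smad3 overlapped all 12 JMJD3 promoter peaks (93.4% over all genes), 28 of the 35 upstream (77.3%), 26 of the 31 inside (77.8%) and 10 of the 11 past the ends (76.7%). Each share was above that of all genes, and none of these differences was tested. The Smad3 shares were not uniform across the receptor genes. Among those whose selected peaks all named them, JMJD3 overlapped 30 of 37 Smad3 peaks at Fgfr1 and 23 of 26 at Fgfr2. At Egfr it overlapped 9 of 19, at Erbb4 11 of 17 and at Pdgfra 1 of 6. Fgfr1 and Fgfr2 thus weigh heavily in the pooled Smad3 shares. Over all peaks, promoters took 25.4% of Smad3 and 25.2% of JMJD3. The gene bodies took 27.3% and 26.6%, upstream positions 29.9% and 30.5%, and positions past the gene end 17.4% and 17.8%.

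**Figure D3:**
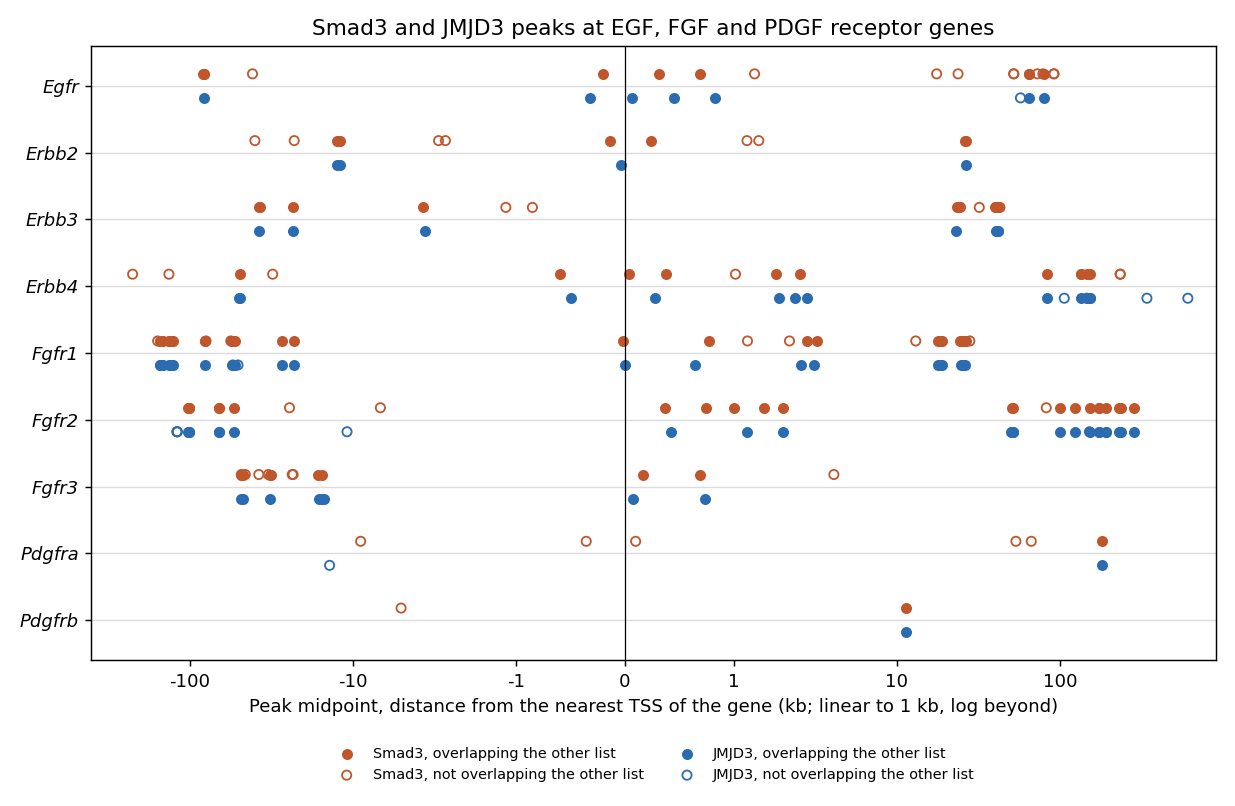
Each point is a peak midpoint, at its distance in kb from the nearest start of the gene (linear to 1 kb, log scale beyond), for Smad3 (orange) and JMJD3 (blue). Filled points overlap a peak of the other list by at least 1 bp. Fgfr1 and Fgfr2 carry most of the filled points far from the start, Egfr has mainly open Smad3 points inside the gene, and Pdgfrb has 3 points in all.

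Fgfr1 was the receptor gene with the most Smad3 peaks. It was named by 37 Smad3 and 26 JMJD3 peaks, more regions than at 98.7% and 99.0% of genes. Joined across both lists, these made 24 sites, a site being a run of peaks of either list joined by the same 10 bp rule. Both factors were present at 16 of them (66.7%, against 47.2% of all sites), Smad3 alone at 6 and JMJD3 alone at 2. The sites fell into an upstream group and a group inside the gene. More than 50 kb upstream lay 14 sites, 9 of them with both factors. The farthest with both was centred 152 kb from the TSS, at 26476391 to 26477241. Upstream of that group the next TSS named in the files is that of Tacc1, 317 kb from Fgfr1.

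Inside Fgfr1, the widest site lay about 25.5 kb from the TSS. Smad3 had 6 peaks there and JMJD3 had 3, over 2590 bp from 26653411 to 26656000. The JMJD3 region in it was 2360 bp wide, more than 99.8% of JMJD3 regions away from promoters. The Smad3 peaks covered 2485 bp of the site but split into regions, the widest distal one of the gene being 1181 bp (96.6% of distal Smad3 regions were narrower). A site with 4 Smad3 and 3 JMJD3 peaks at 18.3 kb preceded it, from 26646711 to 26648390. The introns and exons of these positions are not given, since no gene models of mm9 were used.

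Fgfr2 had fewer Smad3 peaks than Fgfr1 and a larger share with JMJD3. It was named by 26 Smad3 and 29 JMJD3 peaks. Of the 921 genes with at least 20 Smad3 peaks, 7 (0.76%) had more JMJD3 than Smad3 peaks, and Fgfr2 was among them. That limit was chosen after the values were seen. Joined into regions, the numbers were 20 for Smad3 and 19 for JMJD3, a ratio of 0.95, where the median over 1766 genes with at least 10 Smad3 regions was 0.625 and 95.8% of those genes had a lower ratio. Both factors shared 15 of its 20 sites (75.0%, against 47.2% of all sites). All 7 sites past the end of the gene were shared, from 123 kb to 284 kb from the TSS, as were 5 of the 6 sites more than 50 kb upstream. The 3 sites from 1 to 50 kb upstream were not shared. The widest JMJD3 region, of 1770 bp from 137358301 to 137360070, lay inside the gene about 51.1 kb from the TSS.

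Egfr stood at the other side, with Smad3 at many places where JMJD3 was not listed. It was named by 19 Smad3 and 8 JMJD3 peaks, which made 13 Smad3 and 5 JMJD3 regions, a ratio of 0.385 that was above 7.64% of the 1766 genes. Of its 13 sites, 4 had both factors (30.8%, against 47.2% of all sites), 8 Smad3 alone and 1 JMJD3 alone. The 4 shared sites were the promoter, a site 82.1 kb upstream (16569521 to 16570690), and 2 sites inside the gene at 64.5 kb and 80.0 kb. The last held a Smad3 region of 1160 bp, wider than 96.3% of distal Smad3 regions. The sites inside Egfr with Smad3 alone ran from 180 bp at 72.8 kb to 931 bp of covered sequence at 92.0 kb.

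Erbb4 had sites with both factors, with Smad3 alone and with JMJD3 alone inside its long gene body. It was named by 17 Smad3 and 16 JMJD3 peaks, at 17 sites, of which 8 were shared, 6 had Smad3 alone and 3 had JMJD3 alone. Its shared percent, 47.1%, was close to the 47.2% of all sites of the 2 lists. The farthest shared site lay 153 kb inside the gene. Both sites beyond that with JMJD3, at 342 kb and 609 kb, had no Smad3 peak, and both with Smad3, at 234 kb and 235 kb, had no JMJD3 peak.

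Fgfr3 was named at 7 sites, of which 5 were shared. Besides the 2 at its promoter these were at 32.1 kb, 16.2 kb and 15.3 kb upstream. At 32.1 kb the JMJD3 peak and another Smad3 peak named Tacc3, and the Smad3 peak that named Fgfr3 shared 50 bp with JMJD3. Pdgfra was named at 6 sites, with 1 shared, which lay 181 kb from the TSS past the end of the gene, toward Kit. Its JMJD3 list held 2 peaks, that one and another 13.9 kb upstream. Erbb2 and Erbb3 were named at 4 and 2 sites, with 1 shared at each.

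**Figure D4:**
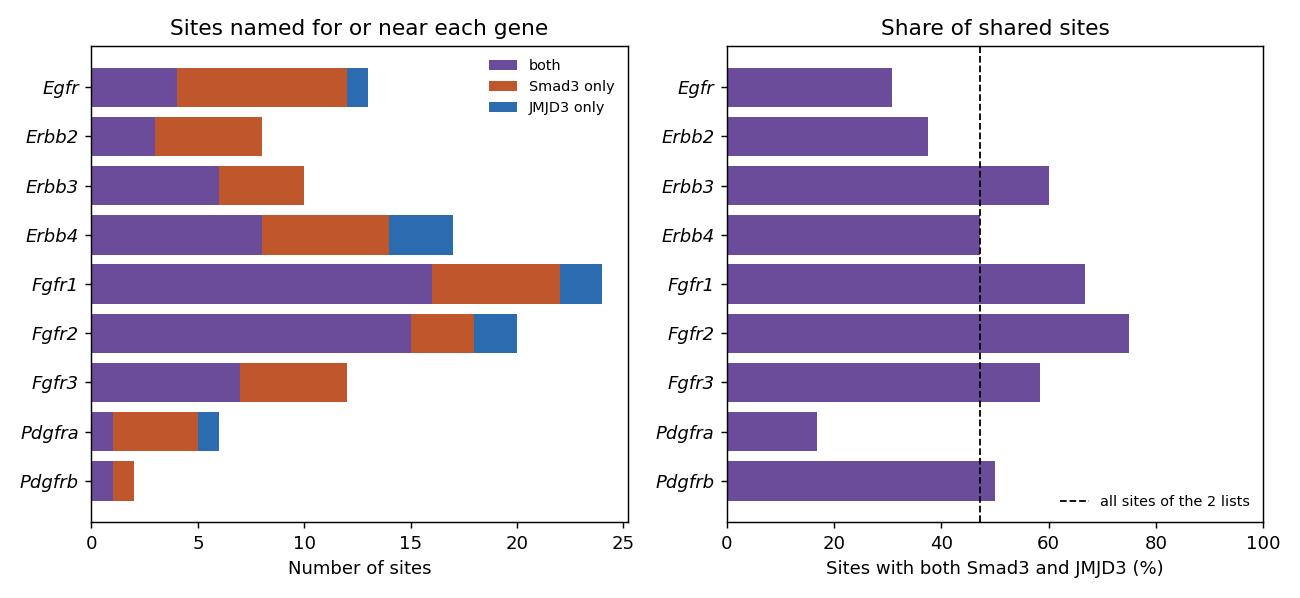
Left, the number of sites named for each receptor gene or within 50 kb of its start, by whether both factors or 1 of them were listed. Right, the percent of those sites with both factors, with the 47.2% of all 75579 sites dashed. Fgfr1 (24 sites) and Fgfr2 (20 sites) have the most sites and the highest shared percents, at 66.7% and 75.0%, and Pdgfra has the lowest, at 16.7%.

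Taking the 9 genes together with the windows of 50 kb, 98 of 150 Smad3 peaks (65.3%, exact Clopper-Pearson 95% CI 57.1 to 72.9) overlapped a JMJD3 peak by at least 1 bp. Of the JMJD3 peaks 88 of 102 (86.3%, 78.0 to 92.3) overlapped Smad3. The intervals cover counting error alone, and peaks of the same locus are not independent. Over all peaks the shares were 60.2% and 81.4%, and both lay inside these intervals. By gene, the Smad3 share went from 16.7% of 6 peaks at Pdgfra and 47.4% of 19 at Egfr to 81.1% of 37 at Fgfr1 and 88.5% of 26 at Fgfr2. At the 61 shared sites the midpoints of the Smad3 and JMJD3 stretches were 70 bp apart in the median, and 41 (67.2%) were within 100 bp. The median over all 35698 shared sites was also 70 bp, and 66.1% were within 100 bp.

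The number of sites that name a gene was also set beside the room around it, and a relation between them was not tested. Fgfr1 had 198 kb of genome to which its TSS was the nearest of those in the files, and 12.1 sites per 100 kb, more than 84.5% of genes. Fgfr2 had 464 kb, more than 92.4% of genes, and 4.31 sites per 100 kb, near the median of 4.6. Egfr had 5.87 per 100 kb over 221 kb. For Erbb4, with 1281 kb, the density was 1.33, lower than at most genes (13.6% were lower). Erbb2 was at the other end, with 4 sites in 19.2 kb, or 20.8 per 100 kb. In a fixed window of 50 kb to each side, Fgfr1 had 14 Smad3 and 7 JMJD3 regions (more than 90.5% and 83.1% of genes), and Fgfr3 had 13 and 7. Fgfr2 had 4 and 4, Egfr 6 and 1, and the medians over all genes were 5 and 3. Most of the sites of Fgfr2 and Egfr therefore lay beyond 50 kb.

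**Figure D5:**
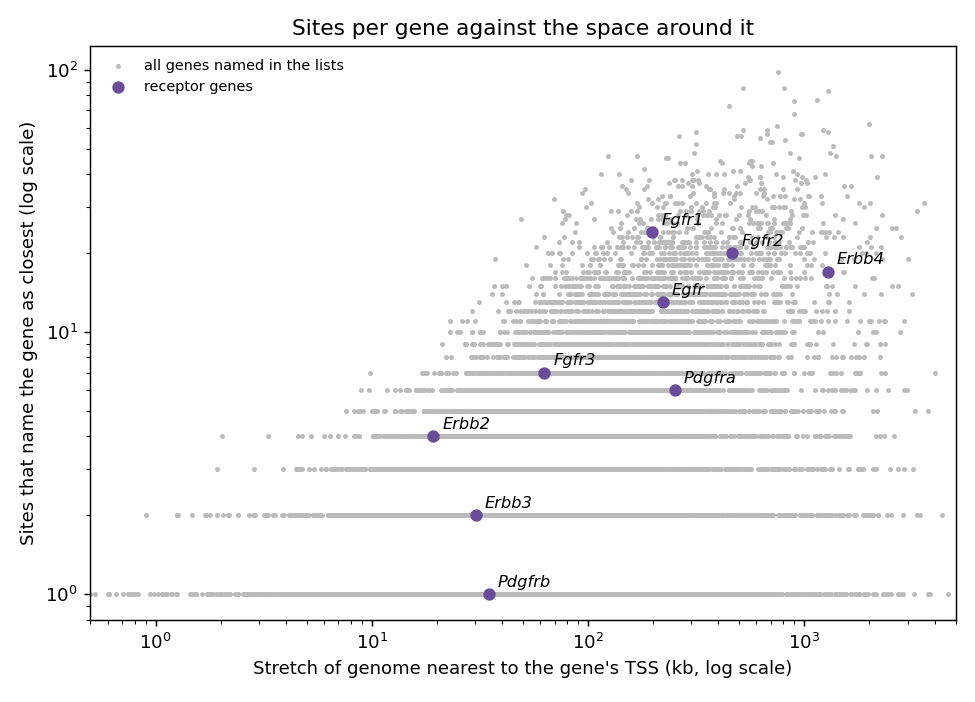
Each grey point is a gene, with the length in kb of genome nearest to its start on the x axis and the number of sites that name it on the y axis (both log scales). Purple points are the 9 receptor genes. Fgfr1 lies high for its 198 kb, with 24 sites, and Erbb4 has 17 sites in 1281 kb.

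Fgfr1 had the most Smad3 regions within 50 kb, and the genes most like it were sought on 4 values, the Smad3 and JMJD3 regions in that window and the widest promoter region of each factor. By the smallest Euclidean distance on the log2(value + 1) scale, over 2 libraries, these were Mpped2 (distance 0.104), Stat5b (0.11) and Scamp3 (0.112). Mpped2 had 13 Smad3 and 7 JMJD3 regions, and promoter regions of 860 and 620 bp, where those of Fgfr1 were 871 and 630 bp.

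Genes that act with these receptors were taken from lists of pathway members. Of 36 genes for EGF, FGF, neuregulin and PDGF ligands, Smad3 was at 18 promoters and JMJD3 at 9 (25.0%), where all coding genes had 55.0% and 43.3%. Hbegf, an EGF receptor ligand, had Smad3 and JMJD3 regions of 1020 and 721 bp. Fgf11 had 630 and 1000 bp, and Fgf14 and Fgf18 were bound by both as well. Nrg2, a neuregulin, and Pdgfa had Smad3 regions of 1330 and 551 bp and no JMJD3 promoter peak.

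Of 32 adaptors and kinases downstream of the receptors, 29 (90.6%) carried Smad3 at the promoter and 25 (78.1%) JMJD3, against 55.0% and 43.3% of all coding genes and 73.1% and 57.1% of genes named in the lists. Ranked by the lower of the 2 width percentiles, the leading genes were Shc1, an adaptor that links receptors to Ras, with 1900 and 1651 bp, Plcg1, a phospholipase recruited by receptors, with 1770 and 1640 bp, and Pik3r1, a regulatory subunit of PI3-kinase, with 1900 and 1630 bp. Pik3r1 was named by 52 Smad3 regions and 35 JMJD3 regions, more than any of the 9 receptor genes. Pik3r2 and Gab2 had Smad3 alone, in regions of 1630 and 980 bp.

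Of 18 genes that modulate these receptors, 17 (94.4%) carried Smad3 at the promoter and 12 (66.7%) JMJD3. All 18 were named in the lists, where 73.1% and 57.1% of genes did. Cblb, a ubiquitin ligase of the Cbl family, had 1340 and 1350 bp, Rnf41, a ubiquitin ligase that acts on ErbB3, had 1240 and 1270 bp, and Socs5 and the phosphatase gene Ptprj were at 1181 and 1200 bp and at 1140 and 1200 bp. Socs4 and Flrt3 had Smad3 alone.

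Of 32 other receptor tyrosine kinases, 20 (62.5%) had a Smad3 promoter peak and 14 (43.8%) a JMJD3 promoter peak, where all coding genes had 55.0% and 43.3%. Igf1r, the IGF1 receptor, had 2340 and 1950 bp, wider than any of the 9 genes for either factor. Mertk and Tyro3, receptors of the TAM family, had 1040 and 1311 bp and 660 and 770 bp. Ntrk3, the receptor of neurotrophin-3, and Ror1 had Smad3 regions of 580 and 550 bp and no JMJD3 promoter peak. Fgfr4, the remaining FGF receptor kinase, was named by 3 Smad3 and 2 JMJD3 regions, none at its promoter. Differences between the lists were not tested, and a promoter peak does not measure expression.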

How the data were processed

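Smad3 and JMJD3 ChIP-seq peak lists (1 library each) were analysed. CASAVA, Bowtie 0.12.7, MACS 1.4 and build mm9 are named, per the submitters' processing notes, without their settings or the part of the input in peak calling. Per the file headers, the deposited rows hold peak positions, the distance from the closest RefSeq TSS, and its gene, with no height, p-value or read number, so depth is unknown.

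Planned measures on a peak score used region width, since the files hold no score. Peaks starting at most 10 bp past the previous end were joined. Promoter, overlap (1 bp) and window (50 kb) rules are given with the results. Percentiles are shares of genes or regions with a lower value. Coding genes and promoter windows came from RefSeq tables of GRCm38.p6, used for names and sequence and not for coordinates of peaks. Named pathway genes were the 3 bound by both with the highest lower width percentile (4 where tied) and the 2 widest bound by 1 factor. The most similar genes excluded those within 200 kb. Members and lists were chosen with earlier results of these data known. The calculations (Python 3.11.15, pandas 2.3.3, scipy 1.17.1) were tested on simulated data.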

Additional observations from a re-analysis of the deposited data

How the results depend on the processing

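No paired analysis was possible because each antibody has 1 library. Smad3 was at 8 promoters under each of the 4 alternatives run: windows of 2.5 and 5 kb, any peak within 1 kb, and only peaks in regions at or above the median width (wider regions). The last left JMJD3, and both, at 3 receptor genes instead of 6, since it drops JMJD3 regions under 740 bp; a window of 5 kb gave 7, adding Erbb3. The share of Smad3 peaks overlapping JMJD3 (65.3%) was 41.3% with reciprocal overlap of 50%, 52.0% with midpoints within 200 bp and 55.4% among peaks in wider regions. The share of JMJD3 peaks overlapping Smad3 (86.3%) was 60.8%, 73.5% and 72.0% under these, and 93.9% within 50 kb alone. Shares over all peaks were not computed under reciprocal overlap, the midpoint rule or wider regions. The values under those rules therefore cannot be set against the 60.2% and 81.4% of all peaks, which hold for overlap by 1 bp. Peak numbers fell from 150 to 74 (Smad3) and from 102 to 50 (JMJD3) in wider regions, and to 90 and 49 within 50 kb alone, by construction. The other alternatives for shares and numbers (by name alone, joined regions, windows of 25 and 100 kb) stayed within the interval or within 1.5 times. Widths depend on joining: with touching peaks alone joined, the widest Egfr promoter regions were 671 bp for Smad3 and 541 bp for JMJD3, and Smad3 at Fgfr2 441 bp, at Erbb2 391 bp and at Erbb3 331 bp. With gaps of up to 100 bp joined, JMJD3 at Fgfr1 was 1240 bp.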

Other observations

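Near the short receptor genes, part of the peaks within 50 kb belonged to neighbours. At Erbb3, 11 of 14 Smad3 and 7 of 8 JMJD3 peaks named Rpl41 and Rps26, which encode ribosomal proteins, Pa2g4, whose product binds ErbB3, or Zc3h10. All 4 had a promoter peak of each factor. At Erbb2, 7 of 13 Smad3 and 3 of 4 JMJD3 peaks named a neighbour, among them Pgap3, with 3 Smad3 and 2 JMJD3 promoter peaks. At Fgfr3, Tacc3 was named by 8 Smad3 and 3 JMJD3 peaks. The TSS of Tacc3 lies 63.6 kb upstream of Fgfr3, outside the window, so peaks at its promoter could not be counted.

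Promoters of neural stem and radial glial marker genes had Smad3 at 9 of 10 and JMJD3 at 8, among them Nes, Sox2, Hes1 and Notch1. Markers of mesenchyme, vessel and blood had Smad3 at 1 of 5 and JMJD3 at 0, oligodendrocyte markers both at 2 of 5 (Olig2 and Cspg4), and neuronal markers Smad3 at 3 and JMJD3 at 2 of 5. Of all coding genes, 55.0% had Smad3 and 43.3% JMJD3 at the promoter, and of genes named in the lists 73.1% and 57.1%. Binding is not expression, so these counts do not identify the cells.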
